A study of Mus musculus with 19 samples.

Results

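The 10 genes described here encode the Notch receptors Notch1, Notch2, Notch3 and Notch4, the ligands Jag1, Jag2, Dll1 and Dll4, and the target genes Hes1 and Hey1. They were taken by name, and all 10 were present among the 23284 genes of each of 2 deposited tables. Notch receptors sit in the cell membrane and are activated by ligands on neighbouring cells. Binding lets proteases of the ADAM family and then gamma-secretase cut the receptor, and the freed intracellular domain enters the nucleus, where it joins the DNA-binding protein Rbpj and coactivators of the Maml family to switch on targets such as the Hes and Hey repressors. In the prostate the pathway is known for its part in epithelial development and in the balance of basal and luminal cells, and in blood vessels Notch4 and Dll4 are known as endothelial genes.

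The labels give 3 kinds of sample measured by RNA-seq, all of strain C57BL/6. The 6 MEF samples were fibroblasts of E13.5 mouse embryos, labelled Nkx3-1tm2(LacZ)Mms /+ and, per the study's methods, pooled from male and female littermates and sorted against blood, endothelial and epithelial surface markers. The 6 prostate samples were whole organs of wild-type mice at 6 weeks of age. The 7 renal grafts held induced epithelial cells made from fibroblasts, which had been recombined with rat urogenital mesenchyme and grown for 6 weeks in nude mice, so a graft can hold reprogrammed mouse cells, rat mesenchyme and cells of the host kidney. The graft labels do not say which transcription factors the cells had received. The study's supplement names 5 of these grafts as made with added transcription factors, and these 5 (FS002, FS003, FS005, FS007 and FS008) share a table with the MEFs and prostates. The study also describes grafts of cells without those added factors, and FS022 and FS023 are the grafts that its supplement does not name, but their labels equal those of the other grafts. They are in a table of their own that was normalized separately, and they entered no test. Nothing in the labels says whether samples of a group came from separate animals or cultures, so p-values measure only the spread between these samples.

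Values are given as deposited, on a log2 scale after normalization for depth, so that 1 unit is a doubling. The reads on genes, estimated from the values, ranged from 16766306 to 26150621 in the first table, and were 6629345 to 9661626 in the second. The level that 3 reads would give lay between 1.68 and 2.34 for libraries of the first table, at 3.12 for FS022 and at 2.70 for FS023. Levels below this were read as not detectable at this depth, and this floor covers counting error only. The 6 MEF libraries fell into 3 close pairs, FS015 with FS020, FS016 with FS019 and FS017 with FS018, whose correlation over genes was 0.981 to 0.997 against 0.915 to 0.956 between pairs. Transcripts of prostate secretion were unequal among them, with a value of 6.6 to 8.6 for probasin (Pbsn) in FS015 to FS018 and of 0.0 and 0.3 in FS019 and FS020, while Tgm4, from the same list, was 8.5 to 9.8 in the former and 7.4 and 7.3 in the latter. Grafts FS007 and FS008 stood apart from the others by correlation, at 0.767 to 0.825 against 0.907 to 0.956 among FS002, FS003 and FS005. Their correlation with each other was 0.882. A chi-square per degree of freedom over highly expressed genes, where lower is closer, did not give this split. It was lowest for FS005 with FS008 (548), against 1016 for FS007 with FS008 and 800 to 1028 among FS002, FS003 and FS005. Differences whose call or size rests on FS007 and FS008 are given with and without them. Leaving them out was decided after the data were seen, so p-values without them are descriptive. The summed level of 6 leukocyte markers was 11.93 and 11.78 in MEFs FS015 and FS020, against 6.97 to 7.33 in FS016 to FS019. Other markers of the labelled tissues read as follows. All 6 luminal epithelial markers passed the test for higher levels in prostate and in grafts than in MEFs, beside 27.8% and 29.9% of all genes. The summed level of 8 fibroblast markers was 18.73 to 19.28 in MEFs and at most 16.41 in the tissues. The summed level of 5 prostate secretion genes was 20.44 to 21.44 in prostate, 9.84 to 12.31 in the 5 grafts and 7.25 to 11.98 in MEFs. Grafts and MEFs thus overlapped in this sum, and 1 of the 5 genes was called higher in grafts than in MEFs and 0 lower.

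Prostate and the 5 grafts were each compared with MEFs and then with each other, within the first table and with limma across all genes. To pass, a gene needed an adjusted p (Benjamini-Hochberg) under 0.05 and a log2 fold change of at least 1 in either direction. The comparisons share samples with each other and are not independent. Because whole tissue was measured, fewer cells of a type and less RNA per cell cannot be told apart. Reads were aligned to the mouse build mm9, so transcripts of the rat mesenchyme in grafts may be counted only in part. How far this lowers graft levels, above all of stromal genes, was not tested.

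Notch1 (chr2:26313423-26372183, mm9, minus strand) was the single receptor that passed in none of the 3 comparisons. Its values in MEFs ran from 10.19 to 10.55 with a median of 10.36, and in prostate from 10.19 to 10.73 with a median of 10.60. In the grafts they were 10.88 in FS002, 10.5 in FS003, 10.22 in FS005, 10.05 in FS007 and 8.43 in FS008. All 3 groups overlapped and only graft FS008 lay well below the rest. Notch1 did not pass in prostate over MEFs (log2 fold change 0.17 ± 0.09 SE, adjusted p = 0.117), in grafts over MEFs (-0.34 ± 0.35, adjusted p = 0.404) or in prostate over grafts (0.51 ± 0.35, adjusted p = 0.239). The sign of the last 2 differences turned without FS007 and FS008, to 0.18 and -0.012.

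Notch2 (chr3:97817461-97954290, plus strand) was the leading receptor of the fibroblasts and was lower in both tissues. Its values were 11.56 to 12.04 in MEFs with a median of 11.86, and 9.55 to 10.22 in prostate with a median of 10.10. The 5 grafts lay in between, at 10.33, 10.37, 10.29, 11.17 and 10.89 in FS002, FS003, FS005, FS007 and FS008. No 2 of the 3 groups overlapped. Notch2 was 3.51-fold lower in prostate than in MEFs (log2 fold change -1.81 ± 0.13 SE, limma adjusted p = 2.4e-08). It was 2.30-fold lower in the grafts than in MEFs (-1.20 ± 0.18, adjusted p = 0.000127), a difference that fell just under the minimum fold after quantile normalization (-0.96). Between prostate and grafts the difference was 1.53-fold, under the minimum (-0.61 ± 0.19, adjusted p = 0.0150), and it was -0.33 with an adjusted p of 0.0591 without FS007 and FS008.

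Notch3 (chr17:32257765-32303825, minus strand), the receptor best known from smooth muscle and pericytes, had its highest mean in the grafts. The graft values were 10.71, 10.11, 10.15, 10.31 and 9.65, in the same order of libraries as above. Prostate ranged from 8.43 to 9.29 with a median of 8.62, below every graft. In MEFs Notch3 followed the library pairs, at 7.89 and 7.81 in FS017 and FS018, 9.45 and 9.35 in FS016 and FS019, and 9.98 and 10.26 in FS015 and FS020. Notch3 was 2.66-fold higher in grafts than in prostate (prostate over grafts, -1.41 ± 0.22 SE on the log2 scale, limma adjusted p = 0.000295). It missed the threshold in grafts over MEFs (1.06 ± 0.45, adjusted p = 0.0550), and passed there when MEF FS015, MEF FS020 or graft FS008 was left out (adjusted p of 0.0356, 0.0217 and 0.0495) and when all samples of the first table entered one fit (adjusted p = 0.0236). In prostate over MEFs it was -0.35 ± 0.41 (adjusted p = 0.437), and -1.04 with an adjusted p of 0.0143 against MEFs FS019 and FS020 alone. The summed level of smooth muscle and pericyte markers was 12.47 to 14.68 in the grafts and 16.56 to 17.25 in prostate. Of these 9 markers, 5 were called higher in prostate and 0 lower, beside 10.3% and 23.0% of all genes. The sum came mostly from smooth muscle genes such as Acta2 and Myh11. Among pericyte markers, Pdgfrb and Rgs5 had higher means in grafts (8.60 and 7.61) than in prostate (7.88 and 7.17). Cspg4 had a lower mean in grafts (7.25 against 8.19). The part of these cell types in the Notch3 result was not tested, nor was the partial counting of rat stromal transcripts in grafts.

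Notch4 (chr17:34701213-34725448, plus strand), a receptor of vascular endothelium, rose from MEFs to prostate and again to the grafts, with no overlap between any pair of groups. Its values were 3.20 to 5.61 in MEFs with a median of 4.87, and 6.13 to 6.90 in prostate with a median of 6.41. The grafts split, with 8.75, 8.24 and 7.78 in FS002, FS003 and FS005 and 12.30 and 11.82 in FS007 and FS008. Graft FS007 thus lay over 3 log2 units above the highest of the other 3. Notch4 was 3.94-fold higher in prostate than in MEFs (log2 fold change 1.98 ± 0.40 SE, limma adjusted p = 0.000471). Grafts over MEFs gave 5.30 ± 0.88 (adjusted p = 0.000299), and 3.78 (adjusted p = 0.000268) without FS007 and FS008. Prostate over grafts gave -3.32 ± 0.77 (adjusted p = 0.00357), and -1.8 (adjusted p = 6.91e-05) without them. The direction and the call thus stood in either set of grafts, while the size did not. The next gene on one side of Notch4, Gpsm3, starts 1303 bases beyond it and had values of 6.35 to 7.64 in the 5 grafts, with no such split.

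**Figure D1:**
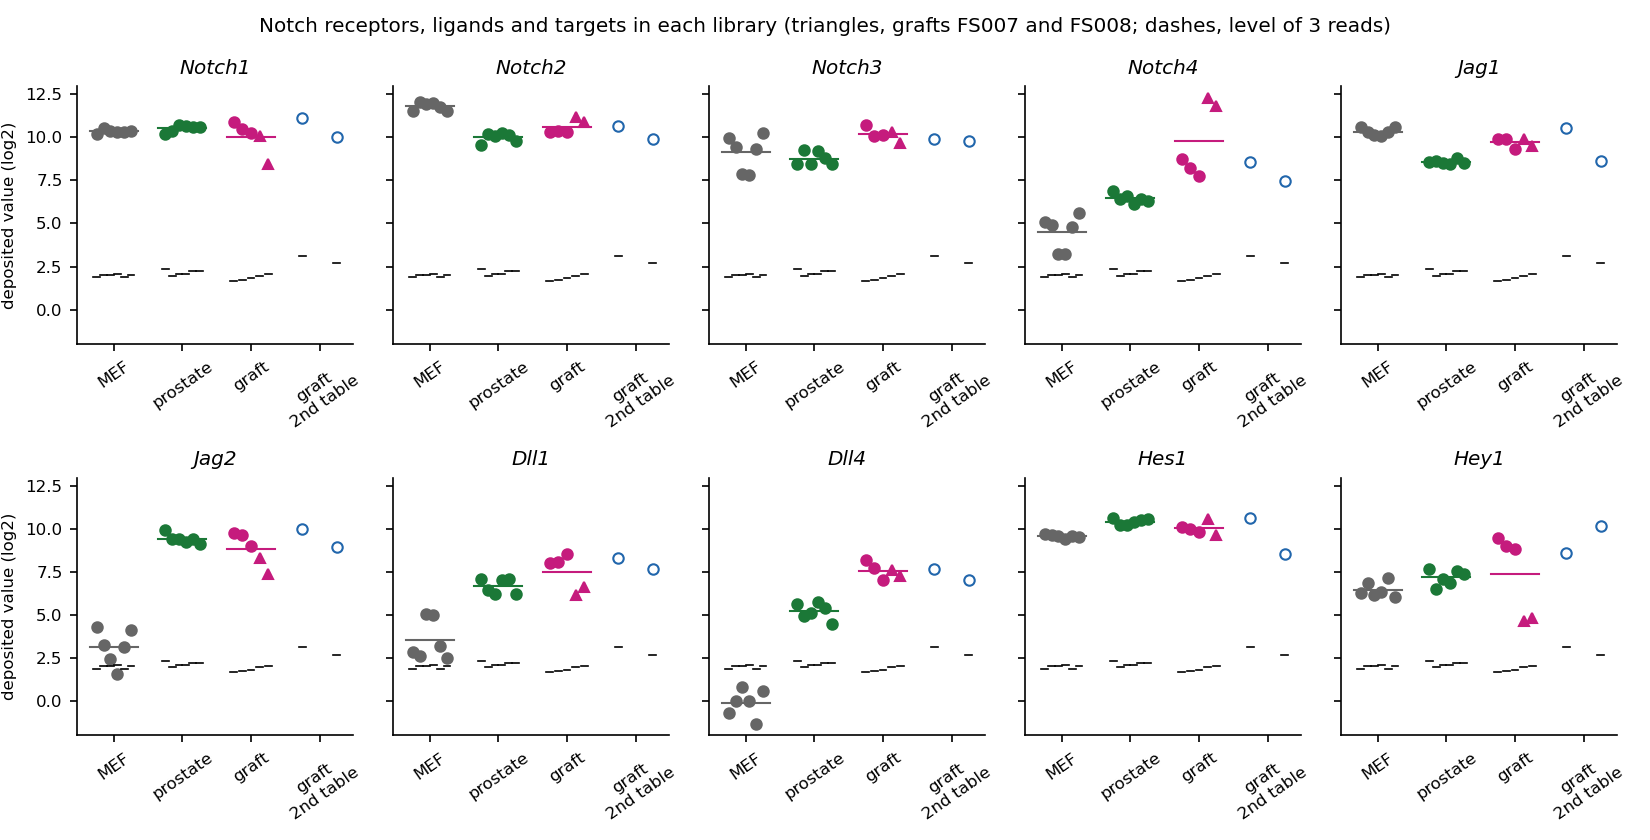
Deposited log2 value (y axis) of each gene in every library, grouped along the x axis; lines are group means of the first table, triangles are grafts FS007 and FS008, open circles are the 2 grafts normalized separately, and black dashes mark the level of 3 reads. Jag2, Dll1 and Dll4 lie lower in MEFs than in every tissue library, and FS007 and FS008 lie above the other grafts for Notch4 and below them for Hey1.

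Among the ligands, Jag1 (chr2:136907192-136942380, minus strand) was the ligand of the fibroblasts. It ranged from 10.09 to 10.59 in MEFs with a median of 10.32 and from 8.43 to 8.79 in prostate with a median of 8.55. The grafts had 9.90 in FS002, 9.90 in FS003, 9.34 in FS005, 9.89 in FS007 and 9.53 in FS008. The 3 groups were ordered without overlap, MEFs highest, grafts next and prostate lowest, and FS007 and FS008 did not stand apart. Jag1 was 3.38-fold lower in prostate than in MEFs (log2 fold change -1.76 ± 0.10 SE, limma adjusted p = 2.27e-09) and 2.19-fold lower in prostate than in grafts (-1.13 ± 0.12, adjusted p = 2.45e-05). The difference between grafts and MEFs was under the minimum fold (-0.63 ± 0.14, adjusted p = 0.00208).

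Jag2 (chr12:114146801-114167706, minus strand), the second ligand of the Jagged type, ran the opposite way. It was low in MEFs, from 1.55 to 4.32 with a median of 3.19, and MEF FS018 was below the level of 3 reads. Prostate ranged from 9.14 to 9.94 with a median of 9.40. In the grafts Jag2 was 9.75, 9.67 and 9.0 in FS002, FS003 and FS005, and 8.30 and 7.39 in FS007 and FS008. Every tissue library thus lay above every MEF library, and the 2 grafts that stand apart were the lowest of the grafts. The log2 fold change was 6.29 ± 0.40 (SE, limma adjusted p = 9.33e-09) in prostate over MEFs and 5.69 ± 0.58 (adjusted p = 8.77e-06) in grafts over MEFs, or 6.34 without FS007 and FS008. Prostate over grafts did not pass (0.61 ± 0.38, adjusted p = 0.190), and it was -0.043 with an adjusted p of 0.854 without FS007 and FS008.

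Dll1 (chr17:15504318-15513836, minus strand), a ligand of the Delta type, was also lowest in MEFs. There it followed the library pairs, with 5.08 and 5.02 in FS017 and FS018 and 2.50 to 3.17 in the other 4. Prostate ranged from 6.19 to 7.07 with a median of 6.74. The grafts had 8.01, 8.05 and 8.53 in FS002, FS003 and FS005 and 6.15 and 6.61 in FS007 and FS008, so that these 2 lay at the level of prostate and the other 3 above it. Dll1 was 8.79-fold higher in prostate than in MEFs (log2 fold change 3.14 ± 0.48 SE, limma adjusted p = 4.38e-05) and 15.3-fold higher in grafts than in MEFs (3.94 ± 0.64, adjusted p = 0.000264), or 4.66 on the log2 scale without FS007 and FS008. It did not pass in prostate over grafts (-0.80 ± 0.42, adjusted p = 0.127). Without FS007 that difference passed (-1.13, adjusted p = 0.0199), as it did without both FS007 and FS008 (-1.53, adjusted p = 0.000401).

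Dll4 (chr2:119151520-119161698, plus strand), the Delta ligand of arterial and sprouting endothelium, was not detectable in the fibroblasts. Its values in MEFs were between -1.31 and 0.82, below the level of 3 reads in all 6 libraries. It was 4.50 to 5.73 in prostate with a median of 5.24, and the grafts had 8.22, 7.73, 7.03, 7.60 and 7.28, in the order used above. The 3 groups did not overlap, and FS007 and FS008 lay within the range of the other grafts. Set against the mean level of 3 reads per MEF library, Dll4 was at least 9.39-fold higher in prostate and at least 48.2-fold higher in the grafts, and both comparisons passed in limma (adjusted p = 5.33e-08 and 2.63e-07). It was 5.13-fold higher in grafts than in prostate (prostate over grafts, -2.36 ± 0.29 SE on the log2 scale, adjusted p = 4.68e-05).

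The target Hes1 (chr16:30064470-30067882, plus strand), a transcriptional repressor, differed little between groups. It ranged from 9.38 to 9.68 in MEFs with a median of 9.58 and from 10.20 to 10.61 in prostate with a median of 10.45. The grafts had 10.13, 10.02, 9.83, 10.58 and 9.63. Prostate and MEFs did not overlap, whereas the grafts overlapped both. Hes1 was 1.8-fold higher in prostate than in MEFs (log2 fold change 0.85 ± 0.08 SE, limma adjusted p = 5.96e-07), which is beyond the spread between libraries but under the minimum fold. Grafts over MEFs gave 0.48 ± 0.15 (adjusted p = 0.0142) and prostate over grafts 0.37 ± 0.16 (adjusted p = 0.0624).

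Hey1 (chr3:8663362-8667039, minus strand), a related repressor, had the widest spread of the 10 genes among the 5 grafts. It was 9.45, 9.03 and 8.81 in FS002, FS003 and FS005 but 4.65 and 4.83 in FS007 and FS008, which is below all MEF and prostate libraries. MEFs ranged from 6.03 to 7.12 with a median of 6.31 and prostate from 6.51 to 7.66 with a median of 7.25, and these 2 groups overlapped. Over all 5 grafts Hey1 did not pass against MEFs (log2 fold change 0.89 ± 0.89 SE, limma adjusted p = 0.393) or prostate (-0.17 ± 0.88, adjusted p = 0.878). With FS002, FS003 and FS005 alone it was higher in grafts than in MEFs (2.64, adjusted p = 2.06e-05) and lower in prostate than in grafts (-1.92, adjusted p = 9.44e-05). The 2 grafts left out were set aside after the data were seen and are those low in Hey1. These adjusted p are thus descriptive and no support for a difference. Prostate over MEFs was under the minimum fold (0.72 ± 0.24, adjusted p = 0.0130), and was 0.26 with an adjusted p of 0.372 after quantile normalization.

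**Figure D2:**
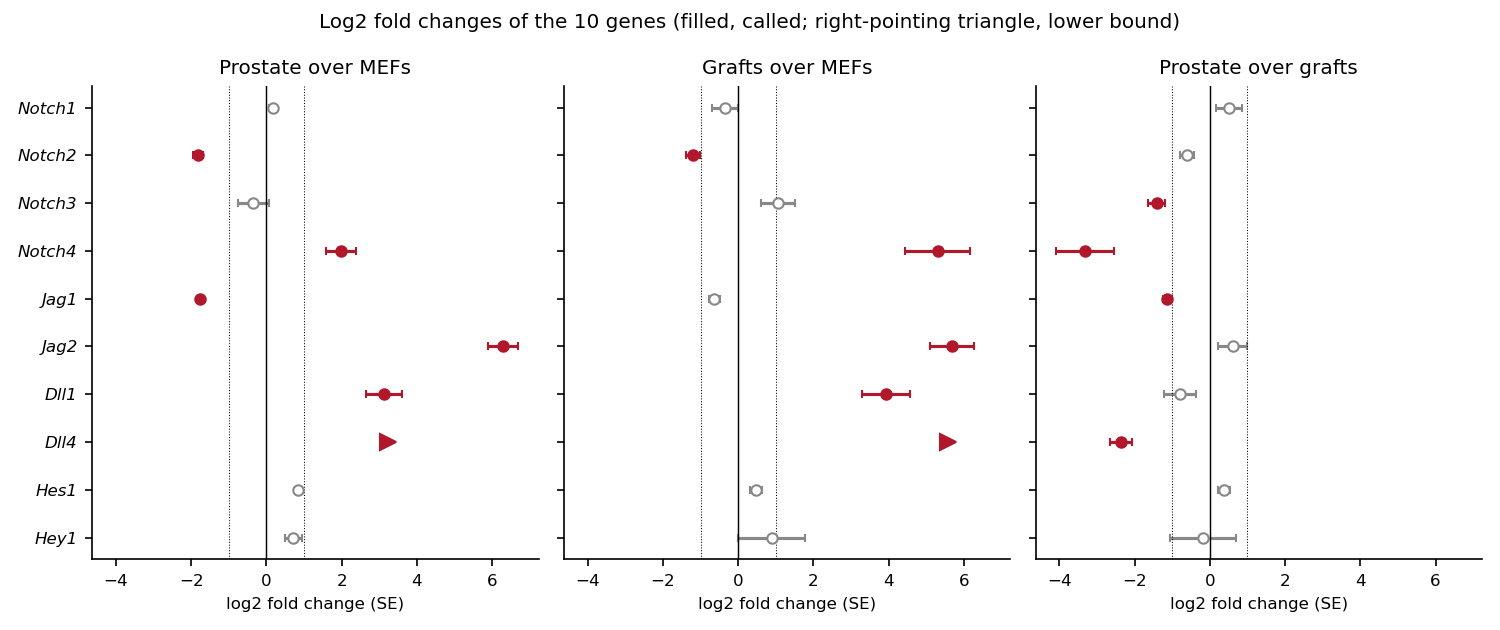
Log2 fold change (x axis) of each gene in the 3 comparisons; bars are standard errors from limma, filled red points passed the test, dotted lines mark the minimum fold, and triangles for Dll4 mark lower bounds set by the level of 3 reads in MEFs. Jag2, Dll1, Dll4 and Notch4 lie to the right in both comparisons with MEFs, and the genes that passed between prostate and grafts all lie to the left.

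Read against all genes, 4 of the 10 passed as higher in prostate than in MEFs (Notch4, Jag2, Dll1 and Dll4), where 27.8% of 14560 genes did, and 2 passed as lower (Notch2 and Jag1), where 20.5% did. In grafts over MEFs the same 4 passed as higher, against 29.9% of 16121 genes, and 1 as lower (Notch2), against 12.0%. In prostate over grafts 0 of 10 were higher, against 10.3% of 16353 genes, and 4 were lower (Notch3, Notch4, Jag1 and Dll4), against 23.0%. Many genes separated these samples, and the share of the 10 that did is not far from that of all genes. The median log2 fold change of the 10 was 0.78 in prostate over MEFs, 0.98 in grafts over MEFs and -0.71 in prostate over grafts, beside 0.17, 0.26 and -0.11 over all genes tested. Quantile normalization moved those medians of all genes to -0.01, -0.19 and 0.13, and the numbers of all genes called higher and lower from 4044 and 2982 to 3344 and 3567 in prostate over MEFs, from 4815 and 1942 to 2556 and 3724 in grafts over MEFs, and from 1683 and 3757 to 3058 and 2342 in prostate over grafts. Under it each of the 10 kept its direction in every comparison except Hey1 in prostate over grafts (0.071), and only Notch2 in grafts over MEFs lost its call. Against MEFs FS019 and FS020, the libraries lowest in the secretion genes, all calls of the 10 in both comparisons stood, and Notch3 in prostate over MEFs was added. FS020 is among the MEF libraries high in leukocyte markers.

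Because a longer transcript gives more reads, levels of different genes were compared per kb of exon, on a linear scale of normalized reads. In MEFs Notch2 led, with 344 ± 50.02 normalized reads per kb (SD, n = 6) against 92.4 ± 7.60 for Notch1, 83.8 ± 50.2 for Notch3 and 3.11 ± 1.89 for Notch4, and Notch1 and Notch3 were within their spread of each other. In prostate Notch1 had 104 ± 14.1 and Notch2 98.3 ± 16.5 (SD, n = 6), within their spread of each other on this length, followed by Notch3 with 56.0 ± 16.5 and Notch4 with 10.9 ± 2.12. As a share of the sum of the 4 receptors, Notch2 thus took 53.2 to 76.5% in MEFs and 33.8 to 38.3% in prostate, and Notch1 16.5 to 18.7% and 31.8 to 44.2%. In grafts FS002, FS003 and FS005 Notch3 had the largest share, at 40.4%, 34.1% and 37.9%, and Notch4 took 10.3%, 9.30% and 7.30%. In FS007 and FS008 Notch4 alone took 58.1% and 59.6%, and Notch1 had 6.93% and 3.19%. The order of close receptors depended on the length used. Per kb of coding sequence Notch1 led in prostate, with 47.3 ± 4.62% against 33.5 ± 2.03% for Notch2 (SD, n = 6) and no overlap, and Notch3 led in none of FS002, FS003 and FS005 (32.8%, 27.4% and 31.0%), where Notch1 (33.7% and 33.0%) and Notch2 (32.0%) were first in turn. The lead of Notch2 in MEFs and of Notch4 in FS007 and FS008 was the same on both lengths.

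The leading ligand differed between fibroblasts and prostate on both lengths. Jag1 made up 95.8 to 98.6% of the 4 ligands per kb in the 6 MEF libraries. In prostate Jag2 made up 58.5 to 69.1% and Jag1 18.3 to 28.2%. In grafts FS002, FS003 and FS005 Jag2 (41.3%, 41.7% and 35.1%) and Jag1 (31.9%, 33.9% and 31.0%) were closer to each other, and in FS007 and FS008 Jag1 led with 53.1% and 54.9%. Per kb of coding sequence Jag1 led in FS002, FS003 and FS005 too (34.7%, 37.1% and 32.4%, against 30.5%, 31.0% and 24.9% for Jag2). Dll4 took 9.38 to 17.4% of the ligands in the 5 grafts and 2.42 to 5.32% in prostate. These shares are descriptions with no test, and in MEFs Dll4 lies below the level of 3 reads in all libraries and Jag2 in 1.

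**Figure D3:**
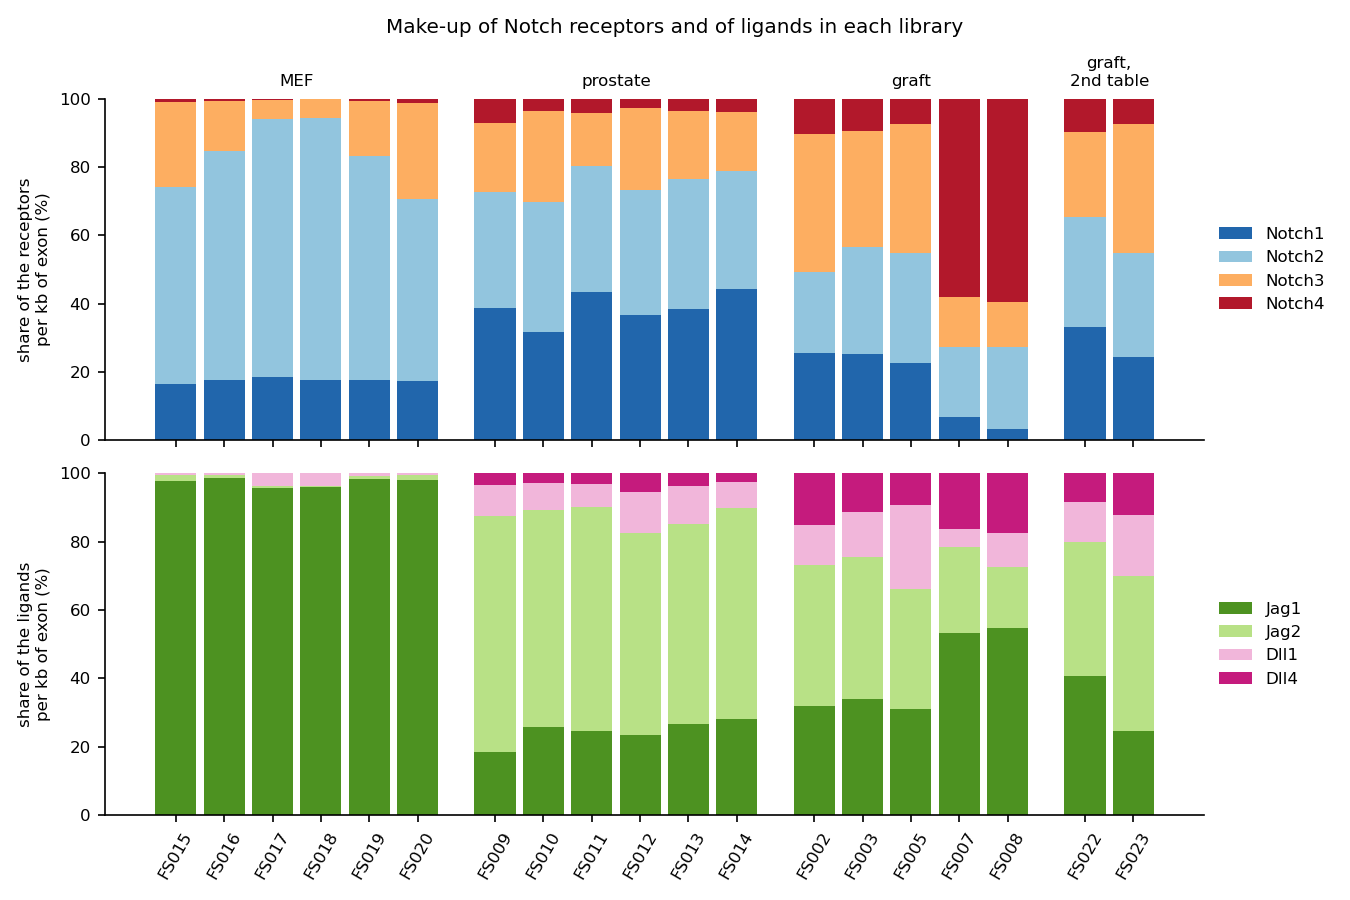
Share of each receptor (top) and each ligand (bottom) in the sum of its kind, in percent of normalized reads per kb of exon (y axis), for every library along the x axis. Jag1 fills over 95% of the ligand bars in MEFs, Jag2 most of those in prostate, and Notch4 more than any other receptor in grafts FS007 and FS008.

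The other genes of the pathway were read from a list of 51 genes present in the first table, of which 46 were tested in prostate over MEFs, 47 in grafts over MEFs and 49 in prostate over grafts. In prostate over MEFs 16 were higher, 10 lower and 20 did not pass, with a median log2 fold change of 0.01. In grafts over MEFs 16 were higher, 6 lower and 25 did not pass (median 0.16), and in prostate over grafts 2 were higher, 9 lower and 38 did not pass (median -0.16). These counts can be read against the same shares of all genes given above.

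Of 9 tested genes of the nuclear complex, 4 were lower and 2 higher in each tissue than in MEFs. Rbpj itself had values of 10.30 to 10.75 in MEFs and 8.38 to 9.47 in the 5 grafts, a log2 fold change of -1.40 ± 0.18 (SE, limma adjusted p = 4.88e-05). The coactivators Maml2 and Maml3 moved apart in prostate over MEFs, where the first was lower (-2.57 ± 0.18, adjusted p = 1.94e-08) and the second higher (3.09 ± 0.37, adjusted p = 4.1e-06). Numbl, which is related to the Notch inhibitor Numb, was lower in prostate (-2.62 ± 0.12, adjusted p = 3.34e-10) and in grafts (-1.83 ± 0.12, adjusted p = 3.91e-07) than in MEFs.

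Of 10 genes for receptor cleavage, 3 were higher and 1 lower in prostate over MEFs, and 1 was higher and 0 lower in grafts over MEFs. Psen2, a catalytic subunit of gamma-secretase, was the only one called between prostate and grafts, at 10.22 to 10.69 in prostate and 8.23 to 9.16 in grafts (log2 fold change 1.8 ± 0.16 SE, limma adjusted p = 6.58e-06). Of 5 genes that glycosylate the receptor, 3 were higher and 1 lower in grafts over MEFs. Mfng, a Fringe enzyme that adds sugars to the receptor, was 6.11 to 8.09 in the grafts, 4.19 to 4.98 in prostate and -0.40 to 4.90 in MEFs, where 4 of 6 libraries were at or below 3 reads and the other 2 were FS015 and FS020. It passed in grafts over MEFs (adjusted p = 0.00105) and in prostate over MEFs (adjusted p = 0.00983). FS015 and FS020 also had a summed level of 6 leukocyte markers of 11.93 and 11.78, against 6.97 to 7.33 in the other 4 MEF libraries, and the part of these cells in the Mfng level was not tested.

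Of the 4 further ligands, 1 was higher and 1 lower in prostate over MEFs, where 3 were tested, 1 was higher in grafts over MEFs, and 2 were lower in prostate over grafts. Dlk1, a Delta-like membrane protein that lacks the domain for Notch binding, was 9.13 to 11.36 in MEFs and 2.23 to 3.54 in prostate (log2 fold change -7.51 ± 0.40 SE, limma adjusted p = 1.65e-09). In the grafts it was 9.2, 9.7 and 10.2 in FS002, FS003 and FS005 and 3.4 and 5.0 in FS007 and FS008, so that the higher level in grafts than in prostate (-4.92 ± 1.14, adjusted p = 0.00357) came with a split among them, and was -7.11 without FS007 and FS008. Dll3 split the same way, at 5.9, 4.3 and 7.4 against 1.0 and 0.4, which are below 3 reads, as were all 6 MEF libraries. It passed in grafts over MEFs (adjusted p = 0.00711) and in prostate over grafts (adjusted p = 0.0386), also without FS007 and FS008 (adjusted p of 0.000135 and 0.00136). Neurl1a, a ubiquitin ligase that acts on ligands, was 7.75 to 8.67 in grafts and 3.57 to 5.43 in prostate (prostate over grafts -3.59 ± 0.38, adjusted p = 1.79e-05).

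Of the other targets, 4 were higher and 1 lower of 5 tested in prostate over MEFs, and 3 were higher of 5 in grafts over MEFs. In prostate over grafts 1 was higher and 3 were lower of 7 tested. The lower ones were Nrarp (log2 fold change -2.33), Hes2 (-1.45) and Hes6 (-1.07). Nrarp, a target that restrains Notch signalling, was 5.88 to 9.41 in grafts and 3.40 to 5.98 in MEFs (log2 fold change 3.85 ± 0.69 SE, limma adjusted p = 0.000524, or 4.70 without FS007 and FS008). Of 14 genes for trafficking and turnover, 4 were higher and 2 lower in prostate over MEFs, 6 higher and 1 lower in grafts over MEFs, and 1 (Neurl1a) lower in prostate over grafts. Among them Dtx1, a ubiquitin ligase of the Deltex family, was higher in prostate than in MEFs (4.47 ± 0.68, adjusted p = 3.9e-05), with 6.22 to 6.54 in prostate and 2 of 6 MEF libraries at or below 3 reads. Hes7 was the single target higher in prostate than in grafts (2.32 ± 0.79, adjusted p = 0.0261), at low values of 3.35 to 4.35 in prostate and -1.02 to 3.10 in grafts. That call rested on FS007 and FS008, both below 3 reads, since without them the difference was under the minimum fold (0.95, adjusted p = 0.0402).

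**Figure D4:**
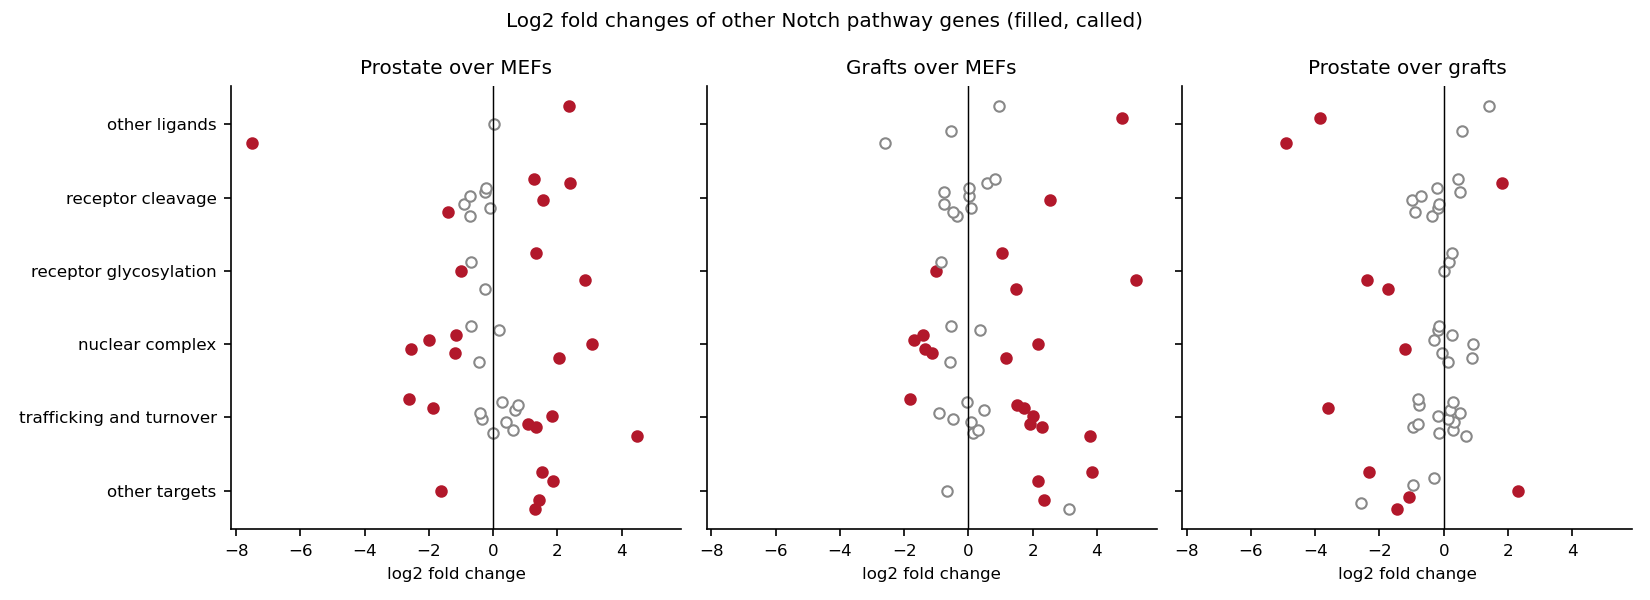
Log2 fold change (x axis) of each tested gene of the other Notch pathway genes, by its role (y axis), in the 3 comparisons; filled red points passed the test. Most cleavage and trafficking genes lie near 0 between prostate and grafts. There 9 of 49 genes passed as lower and 2 as higher, beside 23.0% and 10.3% of all genes.

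The 2 grafts that stood apart differed from the other 3 in the levels of some Notch genes. Compared with FS002, FS003 and FS005, they were higher in Notch4 and Notch2 and lower in Notch1, Jag2, Dll1 and Hey1. Values of these genes did not overlap between the 2 sets, while those of Notch3, Jag1, Dll4 and Hes1 did. With 3 grafts against 2, and with these 2 singled out from their values over all genes, this is a description and was not tested. The share of all genes without overlap between the 2 sets was not computed, so nothing particular to Notch genes is claimed. Some other pathway genes, chosen after their values were seen, split in a similar way and others did not. The target Heyl was 8.2, 8.3 and 6.9 in FS002, FS003 and FS005 and 5.1 and 6.0 in FS007 and FS008. Hes5 was 6.0, 5.1 and 7.2 against -1.7 and 1.5, which are below the level of 3 reads. Dtx1 was 7.7, 7.7 and 7.2 against 3.6 and 2.2. In contrast the target Hes6 was 9.8, 9.6 and 10.2 against 10.0 and 11.8, and Hes2 was 3.8, 4.3 and 4.2 against 4.2 and 3.3.

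The endothelial markers were set beside Notch4 and Dll4. All 11 markers were tested. In prostate over MEFs 8 were higher and 1 lower, beside 27.8% and 20.5% of all genes. In grafts over MEFs 8 were higher and 1 lower, beside 29.9% and 12.0%. In prostate over grafts 0 were higher and 4 lower, beside 10.3% and 23.0%. Their summed level was 10.70 to 11.10 in MEFs, 11.21 to 11.63 in prostate and 12.09 to 12.85 in the 5 grafts, the same order as for Notch4 and Dll4. In MEFs most of the sum was from Kdr, Flt1 and Eng, while Pecam1, Cdh5 and Tie1 were between -2.6 and 4.7. Within the grafts the sum was 12.37 in FS007 and 12.62 in FS008, inside the range of the other 3. FS007, the graft highest in Notch4, had the lowest value of the 5 for every marker on the list except Vwf. Among these were Pecam1 (8.9), Cdh5 (8.2), Tie1 (7.6) and Esam (7.1). Its Vwf was the highest (11.6) and made up most of its sum. Vwf in FS008 was 10.7 and in the other 3 grafts 8.7 to 9.5. The part of endothelial cells in the Notch4 and Dll4 levels was not tested.

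**Figure D5:**
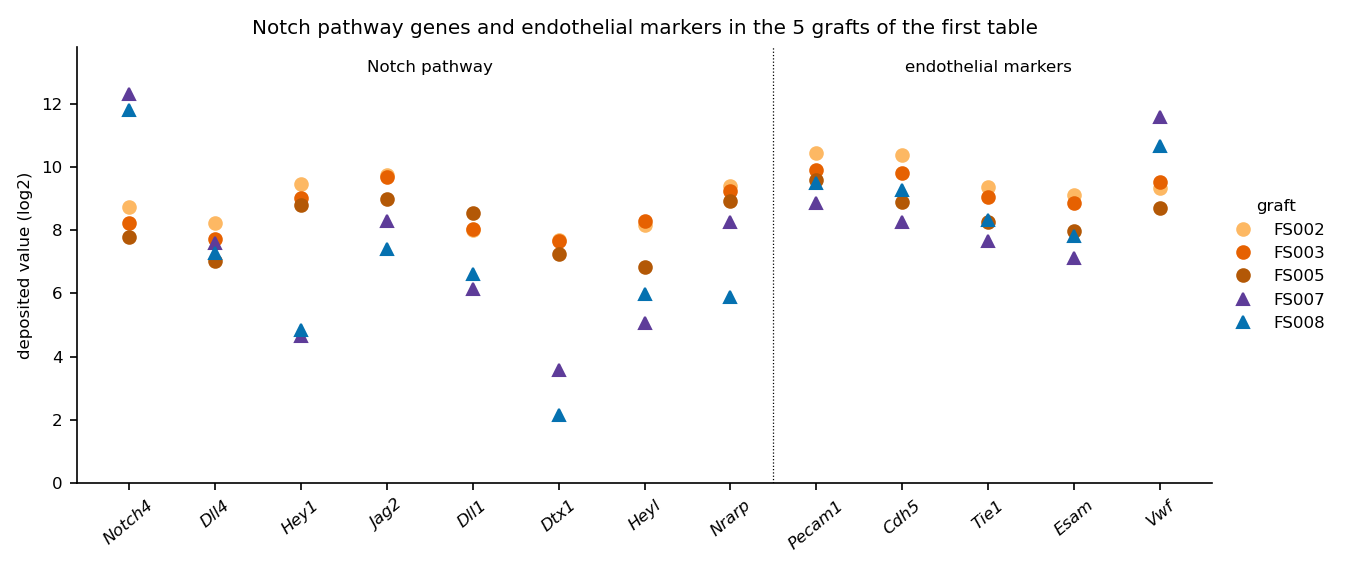
Deposited log2 value (y axis) of Notch pathway genes and endothelial markers (x axis) in the 5 grafts of the first table; triangles are FS007 and FS008. Notch4 is 11.82 or more in these 2, while Pecam1, Cdh5, Tie1 and Esam in FS007 are the lowest of the 5 grafts.

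Other cell types also differed among the grafts. The summed level of 6 basal epithelial markers was 12.63 in FS008, the lowest, and 15.41 in FS002, the highest. Krt5 was 5.1 in FS008 against 11.7 to 13.7 in the other 4, and Krt14, Krt15, Trp63 and Col17a1 were also lowest in FS008. Dst, from the same list, went the other way, at 12.5 in FS008 against 11.2 to 11.7 in the other 4, and made up most of the FS008 sum. FS002 was also the graft highest in Notch1 and Jag2, and FS008 the lowest in both. All 9 kidney markers were higher in grafts than in MEFs, beside 29.9% of all genes. Their sum ranged from 10.32 in FS003 and 12.78 in FS007 to 16.35, 17.37 and 17.28 in FS002, FS005 and FS008. Kidney signal thus differed within both sets of grafts. The part of basal cells in Notch1 and Jag2, and of kidney cells in Notch4 and Hey1, was not tested.

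The 2 grafts of the second table are given as values alone, because their normalization was separate. Over 10188 genes with a value above 5 in all libraries, their values lay a median of -0.10 and -0.14 from the mean of the first table. Notch1 was 11.13 in FS022 and 10.00 in FS023, Notch2 10.65 and 9.89, Notch3 9.89 and 9.80, and Notch4 8.54 and 7.48. Both thus carried all 4 receptors, with Notch4 near the level in FS002, FS003 and FS005. Jag1 was 10.55 and 8.60, Jag2 9.98 and 8.97, Dll1 8.30 and 7.70, and Dll4 7.68 and 7.0. Hes1 was 10.63 in FS022 and 8.51 in FS023, and Hey1 was 8.61 and 10.19. FS023 thus had the lowest Hes1 and the highest Hey1 value of all 19 libraries, across tables whose scales may differ.

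The genes whose values most resembled those of each member over the 17 libraries of the first table were found among 16101 genes by Pearson's r. These libraries form 3 groups with different means, so that r is a description only. Jag2 was nearest to Smagp (r = 0.995) and Cds1 (0.986), Dll4 to Sox18 (0.990), an endothelial transcription factor, and to Nos3 (0.981), the endothelial nitric oxide synthase. Jag1 was nearest to Dock1 (0.988) and Map4k4 (0.982), and Notch2 to Loxl4 (0.986) and Cpsf2 (0.981). Dll1 was nearest to Lcn2 (0.971) and Nr1h3 (0.960), Notch4 to Vars2 (0.970) and Cd5 (0.966), Hes1 to Trafd1 (0.960) and Fam192a (0.941), and Notch3 to Cd40 (0.949) and Rarb (0.917). The likeness was weakest for Hey1, nearest to Kctd12b (0.930) and Grik4 (0.900), and for Notch1, nearest to Hmgn2 (0.899) and Zfp429 (0.886). Among the 10 themselves, the closest were Dll1 and Dll4 (r = 0.901), Jag2 and Dll4 (0.887) and Notch2 and Jag1 (0.860), and the most opposed were Notch2 and Jag2 (-0.945).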

How the data were processed

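The deposited values are log2 levels that the authors obtained by DESeq normalization of the reads on each gene. Per the processing notes, TopHat, Cufflinks and the build mm9 were used; the library kit does not mark strand. Above a value of 11.5, 2 to the power of the value equalled k times a library constant plus a shared constant, where k is an integer read number (100% within 0.1 reads, checked up to 13), which gave the reads and the level of 3 reads per library. Lower values carry scatter, so whole reads were not recovered and no count test was run.

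Groups followed the labels. Genes whose linear mean reached 10 were tested with limma 3.58.1 (lmFit, eBayes with trend, R 4.3.3) on the deposited values of the 2 groups compared. The method was tested on simulated data. Alternatives were quantile normalization, other filters, 8 added on the linear scale, no minimum fold, all samples in one fit, each library left out, MEFs FS019 and FS020 alone, exact two-sided permutation tests and coding length. Averaging MEF pairs and leaving out FS007 and FS008 were added after seeing the data. Lengths and positions are from GENCODE M1. Linear values are 2 to the power of the value minus 1.61. Other steps used scipy 1.17.1, pandas 2.3.3, matplotlib 3.10.9 and numpy 2.4.6 in Python 3.11.15.

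The members and all gene lists were chosen with earlier results of these data known. Named were the 10 genes, in each comparison up to 3 called pathway genes with the largest change each way, and for each member the 2 most correlated genes. A result that this rule selects is not reported here.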

Additional observations from a re-analysis of the deposited data

Results flagged for a closer look

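Dixon's test at the 95% level was applied to each of the 10 genes in each of the 3 groups of the first table, 30 sets in all, of which chance would flag about 1.5. It marked 1, Jag2 in prostate, where library FS009 had a value of 9.94 and the other 5 had 9.14 to 9.44.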

How the results depend on the processing

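No paired analysis was possible because the labels give no replicate number that samples of different groups share. Without a minimum fold change, 11772, 10573 and 9093 genes passed in prostate over MEFs, grafts over MEFs and prostate over grafts, and 41, 34 and 25 of the other pathway genes, by construction. All other totals of genes called in either direction stayed within 1.5 times those reported. With one library left out, 6923 to 7125, 6370 to 6858 and 5044 to 5843 genes passed in the 3 comparisons, and 6, 5 to 6 and 4 to 5 of the 10 Notch genes. The calls of the 10 were the same with MEF libraries averaged in pairs.

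Reversals were all among differences that did not pass. Notch1 in grafts over MEFs ran from -0.56 to 0.057 with one library left out, turning without FS008, and was 0.18 without FS007 and FS008 and -0.012 in prostate over grafts without both. Jag2 turned to -0.043 in prostate over grafts without both. Hey1 turned in prostate over grafts after quantile normalization (0.071) and without FS002, FS003 or FS005 (0.35, 0.24 and 0.19), with a range of -0.85 to 0.35 over single libraries left out. The cause was not tested. Exact two-sided permutation tests gave 0.00216, the smallest p that 6 against 6 or 5 against 6 libraries allow here, for each of the called differences. Coding length moved 8 of 24 mean shares beyond 1 SD; in prostate Jag2 went to 52.0% and Notch1 to 47.3%, and the order of close receptors and ligands turned in 3 grafts. With a stricter filter Dll4 was not tested in prostate over MEFs. Depth limits Dll4 and Jag2 in MEFs.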
